A study of Mus musculus with 12 samples.

Results

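The genes described here are 37 genes of smooth muscle and myofibroblast contraction, focal adhesions and the serum response factor (SRF) pathway. They were listed by symbol and found by their Ensembl identifiers among the 54232 genes of each count file. No member was removed by the rule of at least 15 counts summed over the libraries, and all 37 also passed the filter on low counts that left 18618 genes for testing. RNA was sequenced from the wounded back skin of male C57BLKS/J mice with the Lepr db/db genotype, which lack a working leptin receptor and become obese and diabetic. The labels give an age of 12.5 weeks. Wounds were made with a 6 mm full-thickness punch and collected on day 10. They were covered from the day of injury in 1 of 3 ways: TD wounds had Tegaderm film alone (5 libraries), Strain wounds had a patch designed to impose about 30% strain (4 libraries), and No Strain wounds had a patch without strain (3 libraries). The receptor defect is carried in every cell and by every group, so the TD wounds are a control for the patch and not for diabetes.

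Contractile force in a healing wound comes from actin filaments pulled by myosin. Wound fibroblasts that take up smooth muscle actin are called myofibroblasts, and the same proteins are made constitutively by vascular smooth muscle, pericytes, the arrector pili muscles of hair follicles and, for some tropomyosins, skeletal muscle. Filaments are anchored at focal adhesions, where talin, vinculin, paxillin, zyxin and the complex of integrin-linked kinase, parvin and PINCH connect integrins to actin. Tension through RhoA releases myocardin-related cofactors from actin monomers, and these act with SRF at a short DNA element, the CArG box, in the promoters of many of these genes.

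Total counts were 20354677 to 25059371 per library, and values below are CPM, the counts divided by a library total corrected for composition (TMM). Replicates were numbered within each group. The labels do not state whether wounds came from separate mice, so p-values measure the spread between these samples, which may be partly technical. Sample titles carry numbers between 1 and 6 in TD and between 7 and 15 under patches, so a difference tied to those numbers and the effect of a patch cannot be told apart. Titles also carry an unexplained letter, L or R. TD replicates 2 to 5 carry R, while Strain replicates 1, 2 and 4 and No Strain replicates 2 and 3 carry L. TD replicate 1 carries L, and Strain replicate 3 and No Strain replicate 1 carry R. Letter and patch can thus be told apart only in part. Markers of dermal fibroblasts, keratinocytes, endothelium, macrophages and skeletal muscle were all present in the libraries, with no listed gene at 0. Summed CPM of the 20 skeletal muscle markers, led by Acta1, was 8173 to 20200 in TD, 3877 to 7345 in Strain and 5715 to 12150 in No Strain. Strain and TD did not overlap in this sum (ratio 0.371, two-sided exact permutation p = 0.0159, adjusted p = 0.0857 over 24 list comparisons). In bulk tissue, fewer cells of a type and less RNA per cell cannot be told apart.

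The CArG box is shown first because it is the sequence by which SRF recognises this class of genes. RefSeq promoter windows (GRCm38.p6, from 250 bases before to 50 after a start) were matched by symbol for 28 of the 37 members, giving 35 windows. The 9 members without a window, among them Tagln, Myh11, Actg2 and Myocd, were not searched. A CArG box, searched on both strands, stood in 4 member windows (11.4%) and in 1.63% of all 32851 windows. Allowing 1 other base among the central 6 gave 5 member windows (14.3%) and 9.98% of all windows. The stretches below hold each match with up to 30 bases on either side, written 5′ to 3′ on the strand of the gene, with the matches in capitals. In Acta2 both matches, which begin 84 and 34 bases before the start, needed the relaxed letters. Cnn2 and Vcl had 1 exact box each, 56 and 227 bases before the start, and Srf had 2, at 82 and 62 bases. Myl9 had 1 exact and 1 relaxed match, at 161 and 99 bases. A match is a description of the letters and not a measured binding site.
Acta2 (chr19:34255368-34255487, minus strand): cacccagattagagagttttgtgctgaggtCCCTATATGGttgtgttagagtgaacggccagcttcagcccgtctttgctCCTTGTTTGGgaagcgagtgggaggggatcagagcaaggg
Cnn2 (chr10:79988514-79988583, plus strand): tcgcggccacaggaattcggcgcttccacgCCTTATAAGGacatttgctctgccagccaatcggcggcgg
Myl9 (chr2:156775273-156775404, plus strand): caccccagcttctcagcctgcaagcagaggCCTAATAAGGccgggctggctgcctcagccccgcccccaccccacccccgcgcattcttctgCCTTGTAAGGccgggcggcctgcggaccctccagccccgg
Srf (chr17:46556185-46556274, minus strand): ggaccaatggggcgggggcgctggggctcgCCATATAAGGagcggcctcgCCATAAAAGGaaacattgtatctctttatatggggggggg
Vcl (chr14:20929148-20929210, plus strand): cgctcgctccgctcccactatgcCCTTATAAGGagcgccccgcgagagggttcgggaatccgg

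Of these 5 genes, Vcl alone passed the threshold in a comparison between groups (below), and it was lower in both patch groups than in TD. Acta2, Cnn2, Myl9 and Srf did not pass in any comparison. Their log2 fold changes between Strain and TD were -0.16, -0.04, -0.25 and -0.07, and those between No Strain and TD were 0.14, 0.07, -0.12 and 0.07.

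Members spanned a wide range of abundance. Per kilobase of annotated exon, the tropomyosins led in TD, with mean levels of 283 CPM per kb for Tpm2, 192 for Tpm4 and 127 for Tpm1. Filamin A (Flna, 122 CPM per kb) and smooth muscle actin (Acta2, 116 CPM per kb) followed. Csrp1, Actn4, Myl9 and Cnn2 lay between 94.7 and 61.4 CPM per kb. The smooth muscle heavy chain Myh11 (9.60 CPM per kb), Lmod1 (3.27) and Cnn1 (2.12) were far lower. Tagln, Ilk and Myocd were the lowest, at 0.814, 0.589 and 0.0896 CPM per kb.

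The low values of Tagln and Ilk came with overlapping annotation. Tagln, which encodes transgelin and is usually an abundant smooth muscle transcript, had 414 counts over all 12 libraries against 70164 for Acta2. In the GENCODE M21 annotation (GRCm38), 62.4% of the exon length of Tagln is shared with exons of the opposite-strand gene Gm48529. Ilk had 401 counts and shares 76.7% of its exon length with Taf10, which had 12994. Vcl (28041 counts) shares 25.5% with Ap3m1 (18662 counts). The strand setting and the rule for reads in several genes are not given in the sources used here, so levels of these 3 genes are uncertain, and the part of the overlap in them was not tested. In all, 13 members share some exon bases with another gene.

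**Figure D1:**
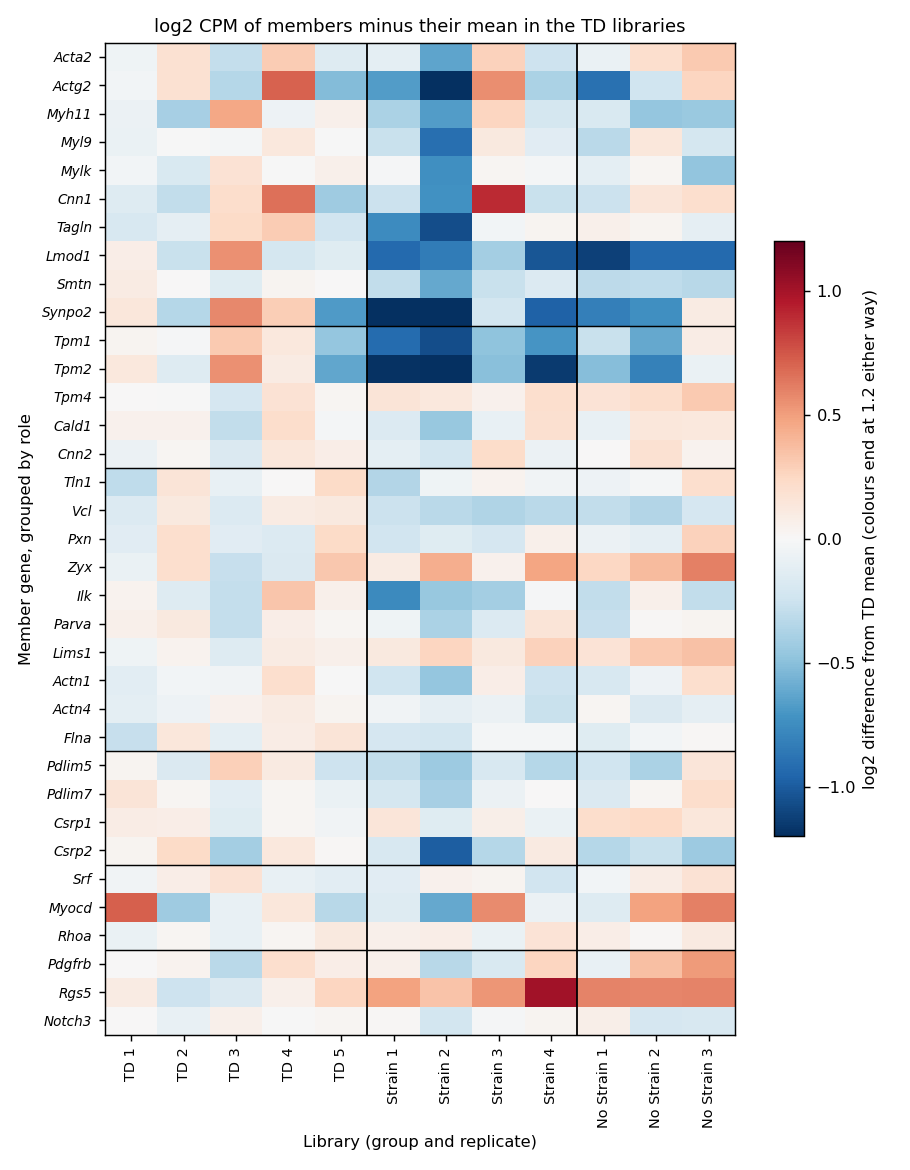
Difference in log2 CPM of 35 of the 37 members (rows, grouped by role) from its mean in the TD libraries, for each library (columns); red is higher and blue lower, with colours ending at 1.2 log2 units either way. Lmod1, Smtn and Vcl are blue and Rgs5 is red across both patch groups, Tpm1 and Tpm2 are bluest in Strain, and Strain replicate 2 is blue in most of the smooth muscle rows.

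The comparison of Strain with No Strain asks about the imposed strain, because both groups wore a patch. No member passed an adjusted p of 0.05 in edgeR's quasi-likelihood test (0 of 37), and 0% of all genes tested did. DESeq2 also called 0 members. At an unadjusted p under 0.05 there were 2 members (5.41%), against 5.61% of all genes. No member had libraries that did not overlap between these groups, against 5.62% of all genes. Fold changes were below 0 for 29 members and above 0 for 8, with a median log2 fold change of -0.11 over members and 0.01 over all genes tested.

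The members with the smallest p in this comparison were Tpm1, Csrp1 and Tpm2, none of which passed. Tpm1 (ENSMUSG00000032366, chr9:67022590-67049406) and Tpm2 (ENSMUSG00000028464, chr4:43514711-43523765) encode tropomyosins, the coiled coils that lie along actin filaments, and their log2 fold changes were -0.54 (95% interval -0.99 to -0.10) and -0.58 (-1.19 to 0.03), both with an edgeR adjusted p of 0.872. Csrp1 encodes a LIM-domain protein of actin bundles. Csrp1 had 196, 195, 167, 188 and 179.7 CPM in TD replicates 1 to 5, 205, 167, 194 and 175 CPM in Strain replicates 1 to 4, and 214, 219 and 204 CPM in No Strain replicates 1 to 3. All 3 No Strain libraries lay above the TD libraries, while Strain covered most of the TD range and reached into that of No Strain. Csrp1 differed between Strain and No Strain by a log2 fold change of -0.20 (SE 0.0835, edgeR adjusted p = 0.872).

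The intervals show how large a strain effect these libraries leave possible. For members with little spread they were narrow: the 95% interval of the log2 difference between Strain and No Strain was -0.22 to 0.15 for Vcl, -0.22 to 0.19 for Smtn, -0.18 to 0.16 for Rhoa and -0.22 to 0.15 for Actn4. For Cnn1, Actg2 and Myocd they reached from -0.79 to 0.81, from -0.97 to 0.86 and from -1.11 to 0.44. A fall of 0.5 log2 units under strain thus lay outside the interval of the first 4 genes and inside that of the last 3.

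**Figure D2:**
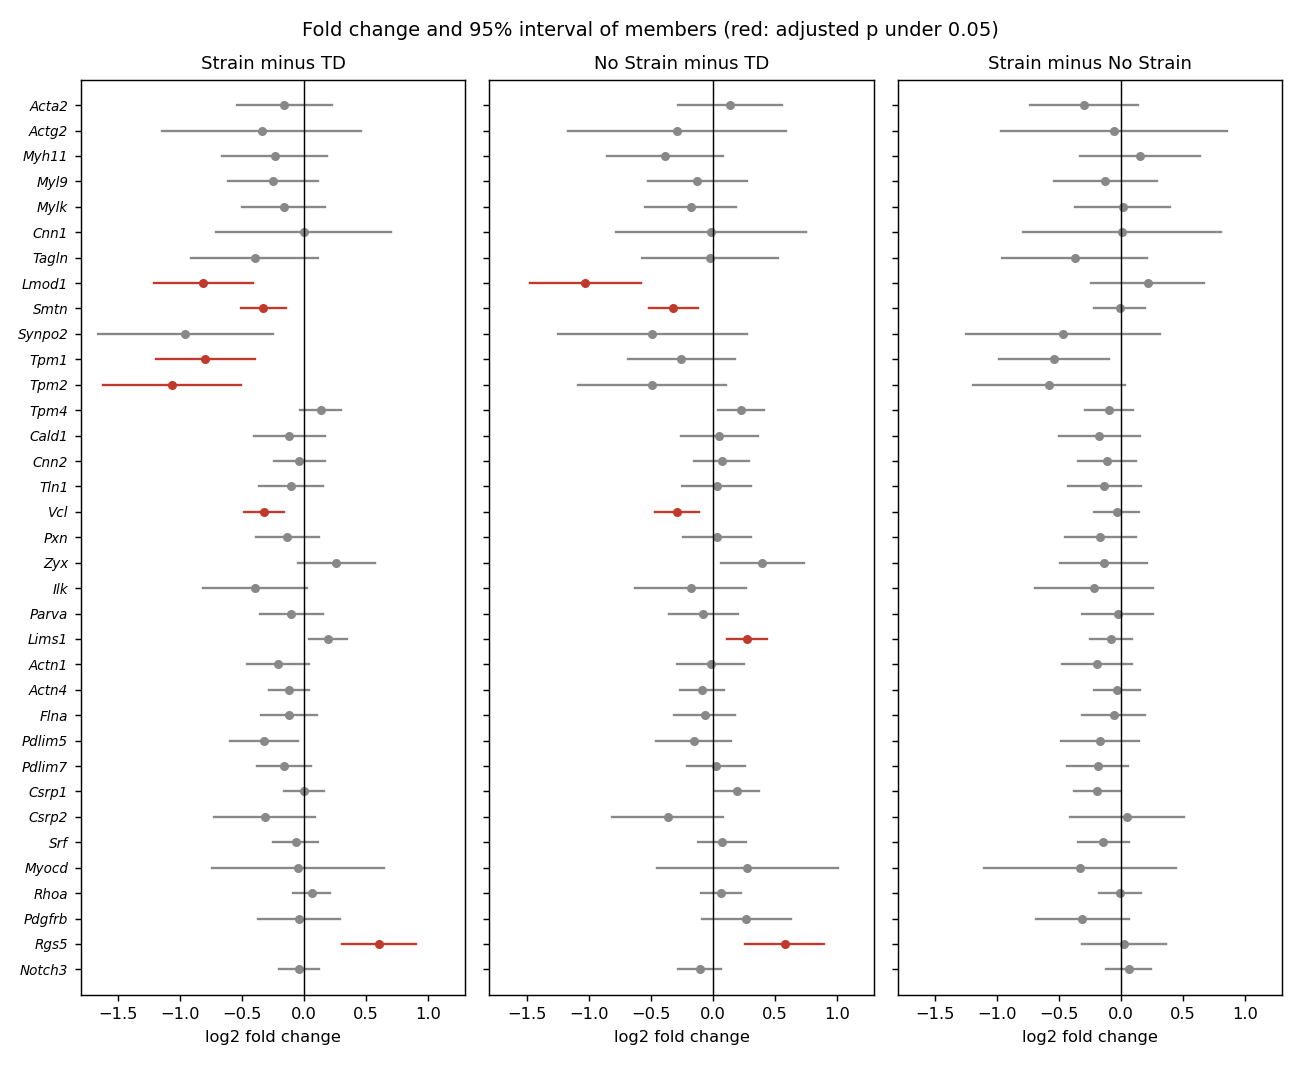
Log2 fold change (points) and 95% interval (lines) of the same 35 members in 3 comparisons, from edgeR's quasi-likelihood fit, with red for an adjusted p under 0.05. There are 6 red members for Strain minus TD, 5 for No Strain minus TD and 0 for Strain minus No Strain.

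Strain wounds differed from TD wounds in 6 of the 37 members (16.2%, against 12.6% of all genes, 6.2% higher and 6.41% lower). Lmod1, Smtn, Vcl, Tpm1 and Tpm2 were lower under the Strain patch and Rgs5 was higher. Fold changes were below 0 for 31 members, with a median of -0.12 over members and 0.02 over all genes. Libraries did not overlap for 4 members on the lower side (Lmod1, Smtn, Vcl and Tpm1) and 2 on the higher side (Lims1 and Rgs5), against 14.6% of all genes (7.15% lower, 7.47% higher). Without Strain replicate 2 the count fell to 2 members, Smtn and Rgs5, and calls among all genes fell from 2349 to 882. With the letter L or R of the sample titles as a covariate, 0 members and 798 of all genes passed. The log2 fold changes stayed near their size, at -0.76 for Lmod1, -0.34 for Smtn, -0.30 for Vcl, -0.74 for Tpm1, -0.98 for Tpm2 and 0.56 for Rgs5. With a skeletal muscle covariate (the mean log2 CPM of that list) the member count was also 0, with values of -0.39 for Smtn, -0.45 for Vcl, 0.37 for Rgs5, -0.24 for Lmod1 and above 0 for Tpm1 and Tpm2.

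No Strain wounds differed from TD wounds in 5 members (13.5%, against 17.8% of all genes, 9.35% higher and 8.4% lower): Lmod1, Smtn and Vcl were lower, and Lims1 and Rgs5 higher. The median log2 fold change was -0.02 over members and 0.00452 over all genes. The groups did not overlap for 3 lower members (Lmod1, Smtn and Vcl) and 3 higher ones (Csrp1, Lims1 and Rgs5), against 26.7% of all genes (12.5% lower, 14.3% higher). The count moved with single libraries, and so did calls among all genes, 3305 in the main fit. The member count was 3 without TD replicate 1, 2 or 4 (all genes: 2644, 2438 and 2344). It was 2 without No Strain replicate 1 (all genes: 1668), and 1 without No Strain replicate 2 or 3 (all genes: 2559 and 1505). It was 1 with the title letter as a covariate (all genes: 2145), when Lmod1 remained. The log2 fold changes of the other 4 were then -0.33 for Smtn, -0.26 for Vcl, 0.25 for Lims1 and 0.55 for Rgs5. With the skeletal muscle covariate it was 0, at -0.71 for Lmod1, -0.35 for Smtn, -0.35 for Vcl, 0.22 for Lims1 and 0.47 for Rgs5.

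Both patch groups together differed from TD in 7 members (18.9%, against 24.4% of all genes, 12.4% higher and 12.1% lower): Lmod1, Smtn, Vcl, Tpm1 and Tpm2 were lower, and Lims1 and Rgs5 higher. The libraries did not overlap for 5 of the 37 members (13.5%), Lmod1, Smtn and Vcl on the lower side and Lims1 and Rgs5 on the higher, against 11% of all genes (5.73% higher, 5.27% lower). The Tpm1 and Tpm2 calls were less stable: of the 12 fits without 1 library Tpm1 lost its call in 8 (highest edgeR adjusted p = 0.0805) and Tpm2 in 2, without TD replicate 3 or No Strain replicate 1 (edgeR adjusted p = 0.063 and 0.0509). Tpm1 kept it only without TD replicate 5, Strain replicate 3 or 4, or No Strain replicate 3. Both calls were also lost with no filter on low counts (edgeR adjusted p = 0.0708 and 0.0694). With the title letter as a covariate 4 members passed (Lmod1, Smtn, Vcl and Rgs5), and with the skeletal muscle covariate 0 did. Calls among all genes were then 2589 and 101, against 4552 in the main fit. All 3 comparisons with TD share its libraries. The 4 members called in both single-patch comparisons were Lmod1, Smtn, Vcl and Rgs5, and 30 members were called in no comparison by edgeR. DESeq2 called 2 of these 30, Synpo2 (Strain and both patch groups against TD) and Tpm4 (No Strain and both patch groups against TD).

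**Figure D3:**
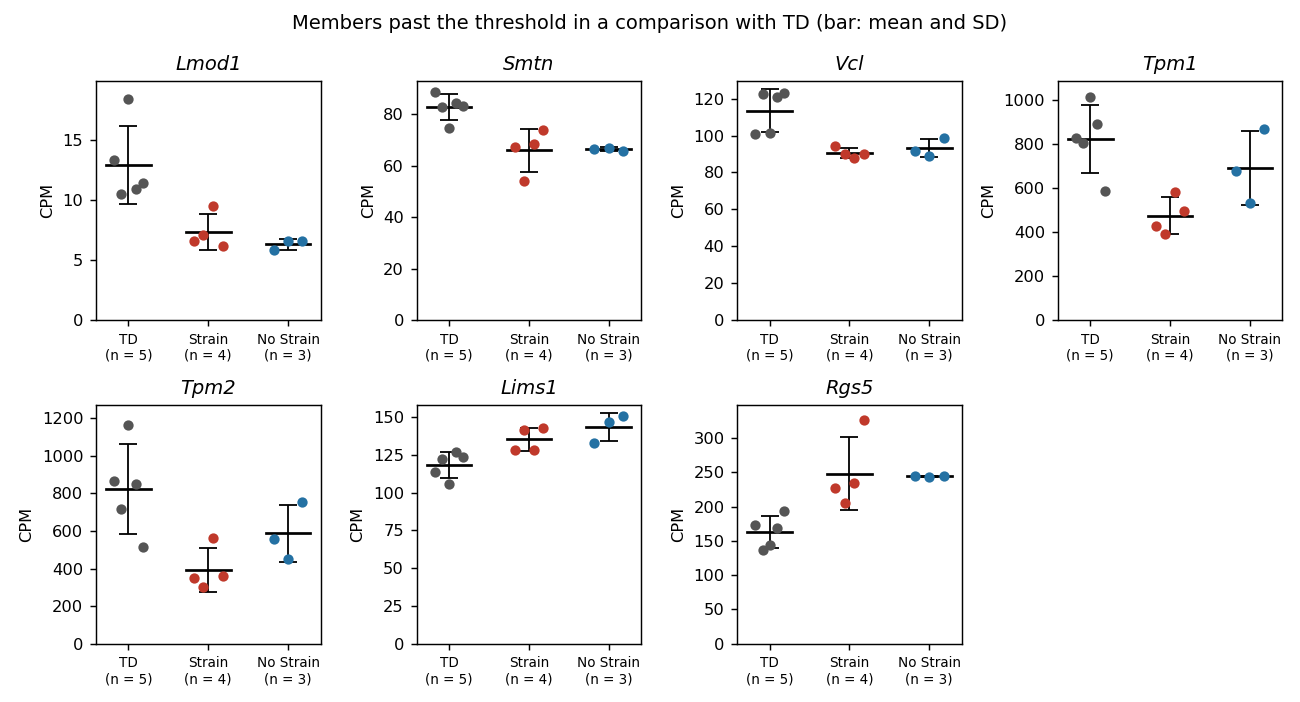
CPM of the 7 members that passed in a comparison with TD, by library (points) in TD, Strain and No Strain, with the mean and SD of each group (bars). For Lmod1, Smtn and Vcl every patch library lies below every TD library, and for Lims1 and Rgs5 every patch library lies above.

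Among the 10 genes of the smooth muscle contractile apparatus, 2 were lower in Strain than in TD and 0 higher, and the same counts held for No Strain against TD (6.41% and 8.4% of all genes were lower in these comparisons). Fold changes of all 10 were below 0 in Strain against TD, with a median of -0.29. In No Strain against TD 9 were below 0, with a median of -0.23. Strain replicate 2 was the lowest of its group for 9 of the 10. Without it the Strain against TD values were -0.03 for Acta2, -0.13 for Actg2, -0.12 for Myh11, -0.09 for Myl9 and -0.02 for Mylk. They were 0.18 for Cnn1, -0.23 for Tagln, -0.80 for Lmod1, -0.25 for Smtn and -0.81 for Synpo2. With the skeletal muscle covariate, the Strain against TD values of Acta2, Actg2, Myh11, Cnn1, Tagln and Synpo2 were above 0. Leiomodin 1 (Lmod1, ENSMUSG00000048096, chr1:135324807-135368065; gene positions are those of GENCODE M21 on GRCm38) encodes a protein that nucleates actin filaments in smooth muscle. Lmod1 had 13.3, 10.5, 18.4, 10.9 and 11.4 CPM in TD replicates 1 to 5, 6.61, 7.07, 9.50 and 6.18 CPM in Strain replicates 1 to 4, and 5.81, 6.61 and 6.60 CPM in No Strain replicates 1 to 3. Every patch library lay below the lowest TD library, and the patch groups overlapped each other. Means were 12.9 ± 3.26 CPM (SD, n = 5) in TD, 7.34 ± 1.49 CPM (SD, n = 4) in Strain and 6.34 ± 0.460 CPM (SD, n = 3) in No Strain. Strain differed from TD by a log2 fold change of -0.81 (SE 0.183, edgeR adjusted p = 0.0181), and No Strain from TD by -1.03 (SE 0.204, edgeR adjusted p = 0.008).

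The call of Lmod1 in No Strain against TD held in all 12 fits that left out 1 library, with a highest edgeR adjusted p of 0.0359. In Strain against TD it was lost without Strain replicate 2 (log2 fold change -0.80, edgeR adjusted p = 0.0551). TD replicate 3, the library with the highest Lmod1, also had the highest skeletal muscle sum (20200 CPM). With the mean log2 CPM of that list as a covariate, the log2 fold change was -0.24 in Strain against TD (edgeR adjusted p = 0.826) and -0.71 in No Strain against TD (edgeR adjusted p = 0.0755).

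Smoothelin (Smtn, ENSMUSG00000020439, chr11:3517523-3540612) encodes a cytoskeletal protein of contractile smooth muscle. Smtn had 88.7, 82.9, 74.8, 84.5 and 83.1 CPM in TD replicates 1 to 5, 67.4, 53.9, 68.6 and 73.9 CPM in Strain replicates 1 to 4, and 66.6, 67.0 and 65.8 CPM in No Strain replicates 1 to 3. The TD libraries were the 5 highest, with the Strain libraries reaching to just under them. Set against TD, the log2 fold changes were -0.33 (SE 0.0829, edgeR adjusted p = 0.0277) in Strain and -0.32 (SE 0.0907, edgeR adjusted p = 0.034) in No Strain. The first call was lost in 3 of 12 fits without 1 library (TD replicates 1, 2 and 4, highest edgeR adjusted p = 0.0561). The second was lost in 7 (TD replicates 1, 2, 4 and 5 and each No Strain replicate, highest edgeR adjusted p = 0.103). Over both patch groups the log2 fold change of Smtn was -0.32 (edgeR adjusted p = 0.00893), a call kept in all 12 such fits.

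Smooth muscle actin did not pass in any comparison. Acta2 (ENSMUSG00000035783, chr19:34241090-34255590) encodes the actin isoform by which myofibroblasts are recognised. Acta2 had 243, 285, 206, 311 and 226 CPM in TD replicates 1 to 5, 232, 162, 305 and 212 CPM in Strain replicates 1 to 4, and 238, 289.8 and 313 CPM in No Strain replicates 1 to 3. Each pair of groups overlapped, with the lowest value in Strain replicate 2 and the highest in No Strain replicate 3. Strain replicates 1, 2 and 4 lay below every No Strain library, and Strain replicate 3 lay within their range. Strain lay at a log2 fold change of -0.30 relative to No Strain (95% interval -0.74 to 0.14, edgeR adjusted p = 0.895). Relative to TD, Strain lay at -0.16 (-0.54 to 0.23, edgeR adjusted p = 0.588) and No Strain at 0.14 (-0.28 to 0.56, edgeR adjusted p = 0.645). Without Strain replicate 2 the Strain against No Strain value was -0.17.

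Myh11, the smooth muscle myosin heavy chain and the member most restricted to smooth muscle, did not pass either. Myh11 had 68.0, 54.3, 99.0, 68.8 and 74.6 CPM in TD replicates 1 to 5, 54.9, 45.1, 85.7 and 61.7 CPM in Strain replicates 1 to 4, and 63.0, 51.8 and 52.5 CPM in No Strain replicates 1 to 3. TD replicate 3 and Strain replicate 3 were the 2 highest libraries, and the No Strain libraries lay within the range of the others. The log2 fold change was -0.24 in Strain against TD (-0.66 to 0.19) and -0.39 in No Strain against TD (-0.85 to 0.08).

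Calponin 1 (Cnn1), a regulator of smooth muscle myosin, had nearly equal group means. Cnn1 had 5.02, 4.56, 6.46, 8.80 and 4.17 CPM in TD replicates 1 to 5, 4.67, 3.38, 10.4 and 4.65 CPM in Strain replicates 1 to 4, and 4.68, 6.18 and 6.41 CPM in No Strain replicates 1 to 3. Strain replicate 3 and TD replicate 4 stood above the rest, and every group overlapped the others. Log2 fold changes lay between -0.01 and 0.01 in the 3 pairwise comparisons, with 95% intervals of up to 0.81 log2 units on either side. Tagln, with the uncertainty given above, behaved differently between the Strain libraries. Tagln had 1.40, 1.48, 1.87, 1.98 and 1.36 CPM in TD replicates 1 to 5, 0.944, 0.765, 1.56 and 1.63 CPM in Strain replicates 1 to 4, and 1.67, 1.63 and 1.49 CPM in No Strain replicates 1 to 3. Strain replicates 1 and 2 were the lowest of all 12, and Strain replicates 3 and 4 lay inside the TD range. Its log2 fold change was -0.40 in Strain against TD (edgeR adjusted p = 0.285) and -0.02 in No Strain against TD (edgeR adjusted p = 0.965).

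The other 4 members of the apparatus were Actg2, an enteric-type smooth muscle actin, the regulatory light chain Myl9, its kinase Mylk, and Synpo2, an actin-bundling protein also found in skeletal muscle. Actg2 spanned 8.24 to 19.2 CPM in TD, 5.09 to 17.3 in Strain and 6.35 to 14.1 in No Strain. Myl9 spanned 71.2 to 82.2 CPM in TD, and its lowest value of all was in Strain replicate 2 (40.3 CPM). Synpo2 had the largest fold change in Strain against TD among the members that did not pass, -0.96 (-1.66 to -0.25, edgeR adjusted p = 0.0725; DESeq2 adjusted p = 0.0204, and 0.0409 over both patch groups). With the skeletal muscle covariate that value was 0.48.

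**Figure D4:**
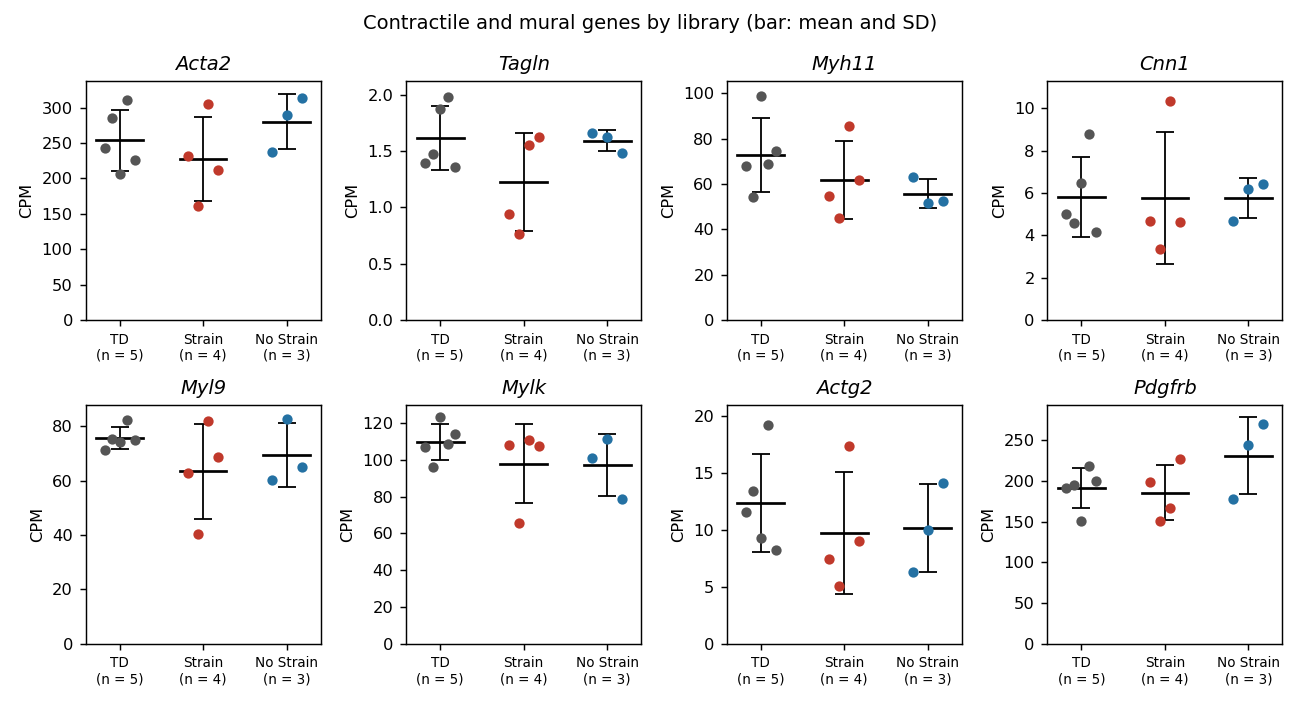
CPM by library (points) of 7 contractile genes and the mural receptor Pdgfrb in TD, Strain and No Strain, with the mean and SD of each group (bars). The groups overlap in all 8 panels, and in the panels of Mylk and Myl9 1 Strain library, replicate 2, lies well below the other 3.

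Of the 5 tropomyosin and broad thin-filament genes, 2 were lower in Strain than in TD (against 6.41% of all genes), 0 passed in No Strain against TD, and 0 passed between the patch groups, all by edgeR. Tpm1 had 829, 807, 1012, 889 and 588 CPM in TD replicates 1 to 5, 429, 389, 583 and 498 CPM in Strain replicates 1 to 4, and 676, 531 and 867 CPM in No Strain replicates 1 to 3. Every Strain library was below every TD library, and No Strain overlapped both groups. Tpm2 had 868, 715, 1165, 850.0 and 515 CPM in TD replicates 1 to 5, 350.0, 300.3, 561 and 359 CPM in Strain replicates 1 to 4, and 557, 452 and 752 CPM in No Strain replicates 1 to 3. Here the highest Strain library, replicate 3, lay above TD replicate 5, so the groups overlapped.

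Log2 fold changes of Strain against TD were -0.80 (SE 0.183, edgeR adjusted p = 0.0196) for Tpm1 and -1.07 (SE 0.253, edgeR adjusted p = 0.0229) for Tpm2. Between No Strain and TD the values were -0.26 and -0.49 (edgeR adjusted p = 0.398 and 0.239). These moved with single libraries: they were -0.0994 and -0.33 without No Strain replicate 2, and -0.45 and -0.71 without No Strain replicate 3, and neither passed in any such fit. Without Strain replicate 2 the Strain against TD values were -0.72 for Tpm1 (edgeR adjusted p = 0.0633) and -0.96 for Tpm2 (edgeR adjusted p = 0.0733). Tpm2 also missed the threshold without Strain replicate 1 (edgeR adjusted p = 0.0536) or Strain replicate 4 (edgeR adjusted p = 0.0502).

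These 2 tropomyosins are also thin-filament proteins of skeletal muscle, and both moved with the skeletal muscle markers. Of the 19 markers tested, 15 were lower in Strain than in TD and 4 lower in No Strain than in TD, with 0 higher in either. Of all genes, 6.41% and 8.4% were lower in these comparisons. The library with the highest marker sum, TD replicate 3, had the highest Tpm1 and Tpm2 of all 12. With the mean of the list as a covariate, the Strain against TD values became 0.11 for Tpm1 and 0.18 for Tpm2 (edgeR adjusted p = 0.868 and 0.802). The Strain against No Strain value of Tpm2 became 0.02. Because Strain and TD did not overlap in this list, the covariate and the group can be told apart only in part, and in that comparison 1 of all genes tested passed with it.

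**Figure D5:**
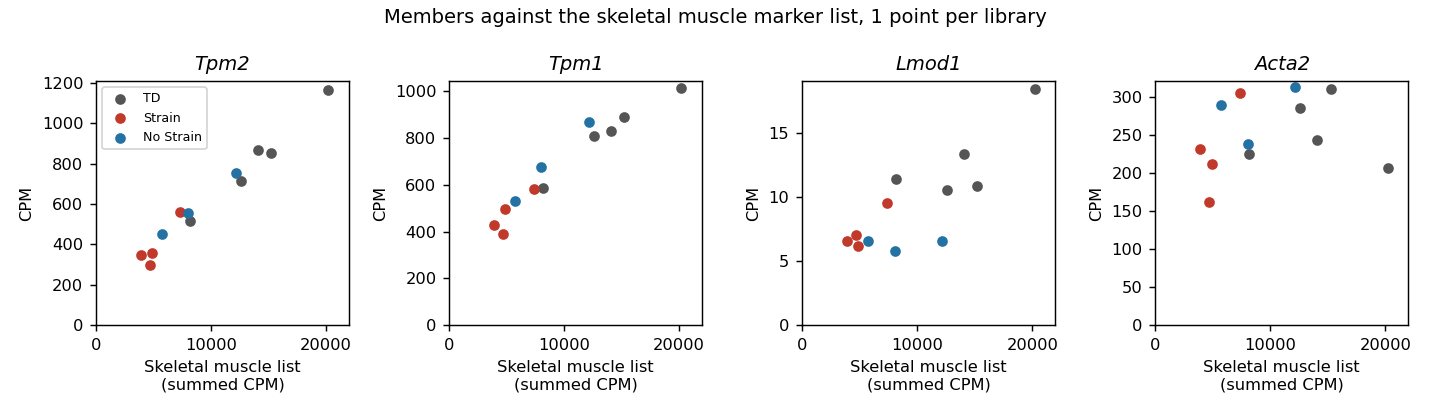
CPM of Tpm2, Tpm1, Lmod1 and Acta2 against the summed CPM of 20 skeletal muscle markers, 1 point per library, coloured by group. Tpm2 and Tpm1 climb with the marker sum through all 3 groups, from 300.3 and 389 CPM to 1165 and 1012 CPM. Lmod1 points of No Strain stay between 5.81 and 6.61 CPM. In TD and in Strain the highest Lmod1 point, 18.4 and 9.50 CPM, is at the highest marker sum of the group. Acta2 points scatter.

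The broadly expressed members of the same class did not pass by edgeR in either direction. Tpm4, the tropomyosin of non-muscle cells, had 423 ± 38.8 CPM (SD, n = 5) in TD, 463 ± 20.2 CPM (SD, n = 4) in Strain and 495 ± 25.6 CPM (SD, n = 3) in No Strain, and its log2 fold change between No Strain and TD was 0.23 (edgeR adjusted p = 0.0806; DESeq2 adjusted p = 0.0349, and 0.0406 over both patch groups). Caldesmon (Cald1) and calponin 2 (Cnn2) had log2 fold changes between -0.12 and 0.07 in the comparisons of a single patch group with TD.

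Among the 10 focal adhesion and cross-linking genes, 1 was lower in Strain than in TD, and 1 was lower and 1 higher in No Strain than in TD, near the 12.6% and 17.8% of all genes called. Vinculin (Vcl, ENSMUSG00000021823, chr14:20929398-21033676) links talin to actin and is recruited to adhesions under load. Vcl had 101, 122, 101, 121 and 123 CPM in TD replicates 1 to 5, 94.5, 90.3, 88.0 and 90.2 CPM in Strain replicates 1 to 4, and 91.9, 88.9 and 98.5 CPM in No Strain replicates 1 to 3. All patch libraries were below all TD libraries, and within TD replicates 1 and 3 were set below the other 3. Means were 114 ± 11.6 CPM (SD, n = 5) in TD, 90.7 ± 2.71 CPM (SD, n = 4) in Strain and 93.1 ± 4.89 CPM (SD, n = 3) in No Strain. Relative to TD, Strain had a log2 fold change of -0.32 (SE 0.0744, edgeR adjusted p = 0.0198) and No Strain one of -0.29 (SE 0.0813, edgeR adjusted p = 0.0327).

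The first call of Vcl was lost without Strain replicate 2 (-0.33, edgeR adjusted p = 0.0529), where the value itself did not shrink. The second was lost in 6 of 12 fits without 1 library: TD replicates 2, 4 and 5 and each No Strain replicate, with a highest edgeR adjusted p of 0.102. With the skeletal muscle covariate the values were -0.45 and -0.35, both as large as without it, at edgeR adjusted p of 0.414 and 0.0647.

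Lims1 (ENSMUSG00000019920, chr10:58323466-58424691) encodes PINCH1, the adaptor that holds integrin-linked kinase and parvin together. Lims1 had 114, 122, 106, 127 and 124 CPM in TD replicates 1 to 5, 129, 141, 128 and 143 CPM in Strain replicates 1 to 4, and 133, 147 and 151 CPM in No Strain replicates 1 to 3. Every patch library was above every TD library by a small margin, 128 CPM against 127 CPM at the closest. Lims1 passed in No Strain against TD, at 0.27 (SE 0.0741, edgeR adjusted p = 0.027) on the log2 scale, and not in Strain against TD, at 0.19 (SE 0.0685, edgeR adjusted p = 0.0874). The No Strain call was lost in 4 of 12 fits without 1 library (TD replicates 1 and 3 and No Strain replicates 2 and 3, highest edgeR adjusted p = 0.111) and when libraries were scaled by their totals alone (0.21, edgeR adjusted p = 0.0567).

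The partners of these proteins did not pass. Zyxin (Zyx), which moves to stressed actin fibres, had 181 ± 32.4 CPM (SD, n = 5) in TD, 216 ± 32.8 CPM (SD, n = 4) in Strain and 238 ± 30.5 CPM (SD, n = 3) in No Strain, with a log2 fold change of 0.40 in No Strain against TD (edgeR adjusted p = 0.0911). Talin 1 (Tln1), paxillin (Pxn), Parva and filamin A had log2 fold changes between -0.14 and 0.03 in the comparisons of a single patch group with TD. The α-actinins Actn1 and Actn4 had -0.21 and -0.12 in Strain against TD. Ilk, with the counting limit given above, had -0.40 there (-0.82 to 0.02).

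None of the 4 LIM and PDZ-LIM genes passed in any comparison. Csrp1 in No Strain against TD had a log2 fold change of 0.20 (edgeR adjusted p = 0.11). Pdlim5 (enigma homologue) had -0.33 in Strain against TD (-0.60 to -0.05, edgeR adjusted p = 0.11) and Pdlim7 (enigma) had -0.17. Csrp2 spanned 49.6 to 77.0 CPM in TD, 33.0 to 70.6 in Strain and 48.3 to 54.4 in No Strain, with its lowest value in Strain replicate 2.

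Srf, Myocd and Rhoa did not pass in any comparison either. Srf had 69.5 ± 6.09 CPM (SD, n = 5) in TD, 66.3 ± 6.23 CPM (SD, n = 4) in Strain and 73.2 ± 5.23 CPM (SD, n = 3) in No Strain. Its muscle-restricted cofactor Myocd, at 167 counts over all libraries and as few as 8 in 1 library, had intervals too wide to read (-0.74 to 0.64 in Strain against TD). Rhoa, the upstream GTPase, had log2 fold changes of 0.06 in Strain and 0.07 in No Strain against TD.

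Among the 3 mural cell genes, which mark pericytes and vascular smooth muscle, Rgs5 alone passed. Rgs5 (ENSMUSG00000026678, chr1:169655501-169695813) encodes a regulator of G-protein signalling that is a widely used pericyte marker. Rgs5 had 174, 136, 144, 169 and 194 CPM in TD replicates 1 to 5, 227, 205, 234 and 326 CPM in Strain replicates 1 to 4, and 245, 243 and 244 CPM in No Strain replicates 1 to 3. Every patch library exceeded every TD library, with Strain replicate 4 the highest of all. Means were 163 ± 23.4 CPM (SD, n = 5) in TD, 248 ± 53.4 CPM (SD, n = 4) in Strain and 244 ± 0.988 CPM (SD, n = 3) in No Strain. Log2 fold changes against TD were 0.60 (SE 0.136, edgeR adjusted p = 0.0181) in Strain and 0.58 (SE 0.146, edgeR adjusted p = 0.0209) in No Strain. The Strain call held in all 12 fits without 1 library, and the No Strain call was lost when any 1 of the 3 No Strain libraries was left out (highest edgeR adjusted p = 0.063). Between the patch groups the difference was 0.02 (-0.32 to 0.36).

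Pdgfrb, the receptor by which mural cells are recruited to vessels and which wound fibroblasts also carry, did not pass. Pdgfrb had 191, 196, 152, 219 and 201 CPM in TD replicates 1 to 5, 199, 151, 167 and 227 CPM in Strain replicates 1 to 4, and 178, 245 and 270.3 CPM in No Strain replicates 1 to 3. No Strain replicates 2 and 3 were the highest libraries, and No Strain replicate 1 sat inside the range of TD. The log2 fold change was -0.04 in Strain against TD, 0.27 in No Strain against TD and -0.31 between the patch groups (edgeR adjusted p = 0.879, 0.276 and 0.881). Notch3 spanned 97.9 to 109 CPM in TD, 89.1 to 107 in Strain and 90.4 to 109 in No Strain.

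Endothelial markers moved with Rgs5. The summed CPM of 12 such genes, led by Pecam1, was 567 to 709 in TD, 738 to 1012 in Strain and 793 to 931 in No Strain, with no overlap between TD and either patch group. The two-sided exact permutation p against TD was 0.00794 for Strain and 0.0179 for No Strain, the smallest these group sizes allow, and both were 0.0857 after adjustment over 24 comparisons. Of the 12 genes, 8 were higher in each patch group than in TD and 0 lower, against 6.2% of all genes higher in Strain and 9.35% in No Strain. The sum of 12 fibroblast markers was 0.984 of its TD mean in Strain and 1.04 in No Strain. Neutrophil markers were 5.27 and 5.04 times their TD mean in Strain and No Strain (two-sided exact permutation p = 0.0159 and 0.0179, adjusted p = 0.0857). Their sums spread widely, at 554 to 1734 CPM in TD, 1036 to 8907 in Strain and 2684 to 5457 in No Strain, so Strain overlapped TD. The part of these 3 marker lists in the members' values was not tested.

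Other mural genes gave calls in both directions. Of 21 listed genes that are no members, 1 was higher and 1 lower in each single-patch comparison with TD, below the 12.6% and 17.8% of all genes called. The higher gene was Rgs4, another regulator of G-protein signalling, with log2 fold changes of 0.51 and 0.59 in Strain and No Strain (edgeR adjusted p = 0.0388 and 0.0237). The lower gene was Cspg4, which encodes the pericyte proteoglycan NG2, with -0.58 and -0.80 (edgeR adjusted p = 0.00462 and 0.00122).

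The wider pathway was followed in 3 further lists of genes that are no members. Of 20 regulators of SRF and its cofactors, 1 was higher and 1 lower in Strain than in TD, and 3 were higher and 1 lower in No Strain than in TD, against 12.6% and 17.8% of all genes called. Cfl1, the actin-severing protein cofilin, had log2 fold changes of 0.34 and 0.47 (edgeR adjusted p = 0.0288 and 0.00784). Arhgef12, an exchange factor that activates RhoA, had -0.17 and -0.29 (edgeR adjusted p = 0.0283 and 0.00376).

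Of 23 genes of non-muscle myosin and light-chain control, 1 was higher and 2 lower in Strain than in TD, and 3 were higher in No Strain than in TD, again beside 12.6% and 17.8% of all genes. Myl12b, a regulatory light chain of non-muscle myosin, rose by 0.31 log2 units in Strain and 0.31 in No Strain (both edgeR adjusted p = 0.0149). Tpm3 rose by 0.45 in No Strain (edgeR adjusted p = 0.0239), Pdlim1 by 0.44 over both patch groups (edgeR adjusted p = 0.0144), and the heavy chain Myh14 had -1.16 in Strain (edgeR adjusted p = 0.0358).

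Of 31 other focal adhesion genes, 2 were higher and 4 lower in Strain than in TD, and 3 were higher and 5 lower in No Strain than in TD, where 12.6% and 17.8% of all genes passed. Tns1, the adhesion protein tensin 1, had a log2 fold change of -0.57 in Strain (edgeR adjusted p = 0.009). Vasp, an actin filament elongator, rose by 0.57 in No Strain (edgeR adjusted p = 0.00246). Between Strain and No Strain, 0 genes passed in each of these 4 lists by edgeR, with 3, 3, 3 and 1 at an unadjusted p under 0.05 for SRF regulation, myosin, adhesion and mural genes, and 0% of all genes passed.

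Some libraries ranked low or high in their group across many members. Strain replicate 2 was the lowest of its group for 24 of the 37 members and for 9 of the 10 smooth muscle genes. No Strain replicate 3 was the highest of its group for 22. In TD, replicate 3 was the lowest for 15 members and replicate 4 the highest for 14. Such ranks were not counted over all genes. The skeletal muscle sum of Strain replicate 2 was 4703 CPM, against 3877 in Strain replicate 1. Its fibroblast sum was the lowest of its group, 47190 CPM against 59510 to 81090 in the other 3. Its macrophage sum was the highest of its group, 7496 CPM. The part of these sums in its ranks was not tested.

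Over the 12 libraries, the members whose log2 CPM followed that of Acta2 most closely were Actg2 and Actn1 (Pearson r = 0.848 each), Cnn2 (0.843), Myl9 (0.731) and Cnn1 (0.724). Myh11 (0.0878) and Lmod1 (-0.00896) did not follow it. Among 12385 genes that are no members and averaged at least 5 CPM, the 5 with the highest r were Ankrd10 (0.843), Phldb2 (0.839), Hs6st2 (0.837), Col11a1 (0.826) and Map1b (0.825). These values describe libraries that share groups, depth and tissue make-up, and they carry no test.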

How the data were processed

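Poly(A) RNA of 12 wounds was sequenced. Per the file headers, each deposited file holds the raw read counts of 1 library by Ensembl gene. The submitters' processing notes name bcl2fastq 2.17, FastQC, cutadapt, STAR, featureCounts, DESeq2 and the GRCm38 build, without roles or settings. Strand setting, annotation release and the treatment of reads in several genes are not given in the sources used here. GENCODE M21 gave symbols to 54079 of the 54232 genes, with positions and exon lengths.

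Genes were filtered with filterByExpr of edgeR 4.0.16 (R 4.3.3; minimum count 10, minimum total 15). All 12 libraries entered 1 robust quasi-likelihood fit with TMM scaling. Benjamini-Hochberg adjustment ran over 18618 genes, with a threshold of 0.05. Standard errors came from fold changes and their F statistics, and log2 CPM used a prior count of 2. Marker sums were compared by two-sided exact permutation tests. The fit was tested on simulated data. No pair of replicates agreed within sampling noise.

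Members and gene lists were chosen with earlier results of these data known. Values by library are given for Acta2, Tagln, Myh11, Cnn1, Pdgfrb and Rgs5, for members past the threshold (up to 6 in each direction) and, where none passed, for the 3 with the smallest p. From each pathway list up to 2 genes a comparison with the smallest p are named. A few genes that these rules would name are not reported here. Other members named for their values were chosen after these were seen. Marker lists covered skeletal muscle, endothelium, fibroblasts, neutrophils, macrophages, keratinocytes, adipocytes and platelets. Alternatives were DESeq2 1.42.0 and its size factors, library totals alone, limma-voom (limma 3.58.1), other filters, only the groups compared, 3 covariates, and leaving out each library. Intervals cover the spread between these libraries, and 3 counts correspond to at most 0.147 CPM before the TMM correction of library totals.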

Additional observations from a re-analysis of the deposited data

Results flagged for a closer look

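Among 90 values screened (each member and marker list in the 2 groups of 4 or more libraries), 4 had 1 library far from the rest of its group by Dixon's criterion. Chance alone gives 4.5 such values at 5%. Mylk, the kinase of the regulatory light chain, had 65.54 CPM in Strain replicate 2, with the next lowest Strain library at 107.5 CPM. Parva, which encodes α-parvin, had 110.8 CPM in TD replicate 3, with the next lowest TD library at 136.6 CPM. The fibroblast marker sum was 46350 CPM in TD replicate 3, with the next at 65420 CPM. The neutrophil marker sum was 1734 CPM in TD replicate 1, with the next at 713.2 CPM.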

How the results depend on the processing

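The count of members called between Strain and No Strain was 0 under every alternative run. In Strain against TD it was 0 with the title letter and 0 with the skeletal muscle covariate, and 2 to 7 when 1 library was left out. For No Strain and TD the same counts were 1, 0 and 1 to 5, and over both patch groups they were 4, 0 and 5 to 9. The skeletal muscle covariate left few calls among all genes too: 1 in Strain against TD, 983 in No Strain against TD and 101 over both patch groups. With the title letter these were 798, 2145 and 2589, against 2349, 3305 and 4552 in the main fit. The log2 ratio of skeletal muscle sums in No Strain against TD was -0.85 without TD replicate 5, and ranged from -1.03 to -0.48 over such exclusions. Without TD replicate 5 the exact permutation p was 0.0286, against 0.125 with all libraries. Neither of these is adjusted over the 24 list comparisons. The endothelial ratio of Strain to No Strain ranged from -0.13 to 0.0468.

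Every alternative was followed for the 13 members given by library, over both patch groups only for the 7 called there. Of their alternatives, 848 kept direction and side of the threshold, 72 lost the call with the sign kept, and 49 changed sign. The 848 include results that were not called in the main fit and stayed so. These numbers therefore do not measure how stable the calls are. Some of the 49 lost a call as well, such as Tpm1 and Tpm2 in Strain against TD with the skeletal muscle covariate. Over all 37 members, the sign changed under the skeletal muscle covariate for 14 in Strain against TD, 10 in No Strain against TD, 13 over both patch groups and 7 between the patch groups, and under the title letter for 3, 5, 4 and 1. Among the 13 and under the skeletal muscle covariate, it changed in Strain against TD for Acta2 (0.0652), Myh11 (0.25), Cnn1 (0.91), Tagln (0.0654), Tpm1 (0.11) and Tpm2 (0.18). In No Strain against TD it changed for Cnn1 (0.52), Tagln (0.23), Tpm1 (0.20) and Tpm2 (0.16), over both patch groups for Tpm1 (0.15) and Tpm2 (0.17), and between the patch groups for Tpm2 (0.0208) and Rgs5 (-0.0944). With the title letter it changed for Cnn1 (-0.0628 between patch groups, 0.18 in Strain against TD, 0.25 in No Strain against TD) and for Tagln (0.12 in No Strain against TD). With limma-voom it changed for Cnn1 (-0.0219, 0.0198 and 0.0417 in the same order) and Tagln (0.0155), and with DESeq2 for Cnn1 (-0.0004778 between patch groups). With library totals alone it changed between the patch groups for Smtn (0.0327) and Vcl (0.00785). With the title number among patch libraries it changed for Smtn (8.391e-05), and with only the groups compared for Csrp1 in Strain against TD (0.002754). What caused them was not tested.

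Sign also changed on leaving out 1 library between the patch groups for Myh11 (-0.0593 to 0.27), Cnn1 (-0.46 to 0.19), Smtn (-0.0703 to 0.0666), Vcl (-0.0721 to 0.004962) and Rgs5 (-0.137 to 0.0956). It did so in Strain against TD for Cnn1 (-0.47 to 0.19), Csrp1 (-0.0513 to 0.0359) and Pdgfrb (-0.15 to 0.0343), and in No Strain against TD for Cnn1 (-0.11 to 0.19) and Tagln (-0.0782 to 0.0573). The title number was fitted among the patch libraries only, and not in comparisons with TD. No paired analysis was possible because the labels give no replicate numbers shared between groups. Myocd, Ilk and Tagln rest on the fewest counts.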

Other observations

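Markers of other cell types gave further values that enter no comparison of the members. The adipocyte sum of 10 genes, led by Fabp4, was 1961 ± 586 CPM (SD, n = 5) in TD, 1035 ± 195 CPM (SD, n = 4) in Strain and 794 ± 148 CPM (SD, n = 3) in No Strain. Its two-sided exact permutation p was 0.0317 for Strain and 0.0357 for No Strain against TD, and 0.122 for both after adjustment over 24 comparisons. Macrophage sums, led by Lyz2, were 1.37 and 1.45 times those of TD in Strain and No Strain (adjusted exact p = 0.25 for both). Keratinocyte sums, led by Krt14, were 1.48 and 1.34 times those of TD (adjusted exact p = 0.25 and 0.337). Platelet and megakaryocyte sums were 0.821 and 0.836 times those of TD (adjusted exact p = 0.406 and 0.482), with 5 of 8 genes tested.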
